A study of Homo sapiens with 6 samples.

Results

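Metallothionein genes and 2 genes of the cellular response to metals were followed in H1, a long-established line of human embryonic stem cells. The members were 10 genes chosen by symbol, and all 10 were found among the 23591 genes of the expression table. They were the metallothionein genes MT1A, MT1E, MT1F, MT1G, MT1H, MT1M, MT1X and MT2A, the zinc-sensing transcription factor gene MTF1 and the zinc exporter gene SLC30A1. Total RNA of 3 libraries labelled HEB KO was set against 3 libraries of wild type H1 cells. HEB is the basic helix-loop-helix E protein encoded by TCF12. Both groups grew without serum in TeSR-E8 medium on Matrigel and were passaged with EDTA, with no metal or other treatment named in the labels. The labels do not say how HEB was disrupted, whether the HEB KO libraries came from 1 clone or several, or whether replicates were separate cultures, so the p-values rest on variation among these libraries that may be technical.

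Metallothioneins are small cytosolic proteins, rich in cysteine, whose thiol groups bind zinc, copper and cadmium. When free zinc rises, the zinc finger protein MTF1 enters the nucleus and binds metal response elements, short motifs in the promoters of metallothionein genes and of SLC30A1. Metallothioneins then hold the metal in the cell, and SLC30A1 carries zinc out across the plasma membrane. Metallothionein genes also respond to oxidative stress and glucocorticoids, which makes their transcripts sensitive to culture conditions.

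The 8 metallothionein members lie on chromosome 16 in 1 cluster, in the RefSeq order MT2A, MT1E, MT1M, MT1A, MT1F, MT1G, MT1H and MT1X, with pseudogenes between them. MTF1 and SLC30A1 lie apart on chromosome 1. In GENCODE release 29, each of the 8 has a principal transcript of 3 exons with 61 codons before the stop, of which 20 encode cysteine. The coding sequences of MT1F, MT1X and MT2A, which carry the comparisons that follow, are printed with cysteine codons in capitals to show how alike the members are.
MT1F: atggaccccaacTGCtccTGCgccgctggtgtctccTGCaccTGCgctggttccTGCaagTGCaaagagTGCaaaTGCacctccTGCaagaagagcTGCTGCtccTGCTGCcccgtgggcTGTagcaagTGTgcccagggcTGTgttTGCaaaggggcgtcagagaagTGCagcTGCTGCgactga
MT1X: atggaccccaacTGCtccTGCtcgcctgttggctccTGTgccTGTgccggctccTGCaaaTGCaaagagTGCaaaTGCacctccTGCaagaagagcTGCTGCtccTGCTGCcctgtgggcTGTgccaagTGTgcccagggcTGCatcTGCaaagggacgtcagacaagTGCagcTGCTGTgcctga
MT2A: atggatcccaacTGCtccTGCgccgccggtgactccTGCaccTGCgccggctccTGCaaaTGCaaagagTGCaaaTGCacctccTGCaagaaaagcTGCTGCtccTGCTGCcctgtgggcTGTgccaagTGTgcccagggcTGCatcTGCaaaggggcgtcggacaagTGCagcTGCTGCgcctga
Over 186 coding bases, MT1F and MT1X were 88.7% identical, the lowest value among the metallothionein members, and MT1G and MT2A were 95.2% identical, the highest. Reads can therefore be assigned to the wrong member, and how the authors treated such reads is not stated in the sources used here. Among the 50-base stretches of each principal transcript, the share also found in a transcript of another gene was 45.1% for MT1X, 20.4% for MT1H, 20.2% for MT1G, 7.05% for MT1M, 5.76% for MT1A, 5.34% for MT1E, 4.88% for MT2A and 3.59% for MT1F. By this measure the MT1F value shared the least sequence with other genes and the MT1X value the most.

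RefSeq promoters (build GRCh38.p14) were at hand for 5 members, and the 250 bases before the start are printed for 4 of them, because the members are known for their shared metal response elements. Capitals mark the element's core, TGCACNC or TGCGCNC on either strand.
MT2A: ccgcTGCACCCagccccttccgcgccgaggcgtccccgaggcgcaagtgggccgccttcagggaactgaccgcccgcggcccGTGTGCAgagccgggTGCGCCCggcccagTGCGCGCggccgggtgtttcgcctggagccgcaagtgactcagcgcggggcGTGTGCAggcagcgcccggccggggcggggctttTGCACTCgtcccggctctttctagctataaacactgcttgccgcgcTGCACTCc
MT1H: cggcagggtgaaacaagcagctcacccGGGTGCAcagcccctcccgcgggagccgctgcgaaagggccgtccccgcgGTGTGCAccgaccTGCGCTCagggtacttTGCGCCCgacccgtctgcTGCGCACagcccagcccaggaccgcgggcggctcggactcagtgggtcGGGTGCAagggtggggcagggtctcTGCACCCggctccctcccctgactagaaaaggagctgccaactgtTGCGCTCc
MT1X: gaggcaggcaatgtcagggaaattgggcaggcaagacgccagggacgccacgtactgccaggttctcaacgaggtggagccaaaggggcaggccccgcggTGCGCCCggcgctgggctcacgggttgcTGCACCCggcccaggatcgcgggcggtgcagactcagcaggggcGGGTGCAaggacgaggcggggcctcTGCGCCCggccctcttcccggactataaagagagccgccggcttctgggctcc
SLC30A1: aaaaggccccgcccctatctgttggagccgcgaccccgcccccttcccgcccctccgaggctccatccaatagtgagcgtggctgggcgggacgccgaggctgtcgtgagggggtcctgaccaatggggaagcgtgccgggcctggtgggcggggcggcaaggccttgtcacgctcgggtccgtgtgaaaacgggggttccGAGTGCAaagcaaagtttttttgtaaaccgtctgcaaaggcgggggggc
These windows are chr16:56608334-56608583 for MT2A, chr16:56669564-56669813 for MT1H and chr16:56682220-56682469 for MT1X, all on the plus strand, and chr1:211579162-211579411 for SLC30A1 on the minus strand. The core occurred 7 times in the MT2A window, 8 times in MT1H, 4 times in MT1X and 1 time in SLC30A1, with no overlap between them, and it was not present in the MTF1 window. At least 3 cores were found in 1.58% of 34943 RefSeq promoter windows of the same length, and at least 1 in 24.8%. The general E-box CANNTG, which reads the same on both strands and is the kind of site that E proteins bind, occurred 2 times in the MT2A window, 1 time each in MT1H and MTF1, and not in MT1X or SLC30A1. It was present in 61.8% of all windows. CAGCTG, an E-box form that E proteins favour, was in none of the 5 windows and in 14.0% of all windows. These matches describe letters only.

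Values were taken to be FPKM, fragment counts scaled for transcript length and library size, so levels can be compared between genes. Summed FPKM over all genes was 440703 in HEB KO library 1 and between 635114 and 714875 in the other 5 libraries, and read depth is unknown. TCF12, the targeted gene, read 14.2, 6.69 and 8.28 FPKM in HEB KO and 44.2, 55.7 and 51.0 FPKM in wild type. HEB KO library 1 stood apart from the rest. On FPKM + 1, 20.0% of the 12937 genes tested differed at least 2-fold between it and HEB KO library 2, and 19.3% between it and library 3, while 1.21% did so between libraries 2 and 3. Members and list medians are therefore given with and without HEB KO library 1. Of the pluripotency markers, POU5F1 read 327, 873 and 902 FPKM in HEB KO and 562, 964 and 1279 FPKM in wild type, and LIN28A averaged 507 ± 225 FPKM in HEB KO and 536 ± 63.6 FPKM in wild type. NANOG, named after its values were seen, averaged 97.4 ± 24.3 FPKM in HEB KO and 203 ± 5.08 FPKM in wild type without overlap (limma adjusted p = 0.274). SALL4, also named after its values were seen, lay wholly above wild type (limma adjusted p = 0.422). It averaged 59.4 ± 5.46 FPKM in HEB KO and 40.3 ± 3.12 FPKM in wild type. The 8 pluripotency markers split into 4 with log2 fold changes above 0 and 4 below, with a median of -0.065. Without HEB KO library 1 they split into 6 above 0 and 2 below, with a median of 0.19. The neural ectoderm marker OTX2 lay wholly above wild type, at 10.9 ± 2.44 FPKM in HEB KO and 2.47 ± 1.88 FPKM in wild type (limma adjusted p = 0.155), while TUBB3 averaged 54.5 ± 30.0 FPKM in HEB KO and 43.6 ± 16.0 FPKM in wild type. PAX6 and SOX1 of the same list, named after their values were seen, lay wholly below wild type. They averaged 0.179 and 0.0275 FPKM in HEB KO and 0.263 and 0.111 FPKM in wild type, too low to be tested. The primitive streak marker MIXL1 lay wholly below wild type, at 0.756 ± 0.266 FPKM in HEB KO and 3.56 ± 2.06 FPKM in wild type (limma adjusted p = 0.294), and KDR averaged 31.9 ± 1.21 FPKM in HEB KO and 47.4 ± 17.9 FPKM in wild type. The endoderm markers AFP and APOA1 reached at most 2.03 and 0.132 FPKM in HEB KO and at most 0.245 and 0.0930 FPKM in wild type. The 6 fibroblast and mesenchyme markers summed to between 11.4 and 86.9 FPKM in HEB KO, highest in library 1, and to between 10.3 and 22.1 FPKM in wild type, with DCN at 0 in all libraries. COL1A1 read 39.7, 3.21 and 1.74 FPKM in HEB KO and 1.14, 1.24 and 0.391 FPKM in wild type. COL1A2 read 46.3, 7.97 and 9.37 FPKM in HEB KO and 20.5, 15.4 and 9.45 FPKM in wild type, so that HEB KO libraries 2 and 3 lay below all wild type libraries. The 6 trophoblast and amnion markers summed to between 2.87 and 10.4 FPKM in HEB KO, again highest in library 1, and to between 1.84 and 3.36 FPKM in wild type. Among them IGFBP3 averaged 2.17 ± 0.693 FPKM in HEB KO and 1.48 ± 0.892 FPKM in wild type. KRT7 lay wholly above wild type, at 1.96 ± 0.729 FPKM in HEB KO and 0.815 ± 0.223 FPKM in wild type (limma adjusted p = 0.409). Both had their highest HEB KO value in library 3. GATA3 and TFAP2A, named after their values were seen, read 2.47 and 3.90 FPKM in HEB KO library 1. In every other library both were at 0.0609 FPKM or less. The part of these markers in the low metallothionein values of HEB KO library 1 was not tested.

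No metallothionein was called changed between HEB KO and wild type cells, and the spread among the HEB KO libraries was wide. MT1F, one of the metallothioneins of the MT1 group, was lower in every HEB KO library than in any wild type library, as were 11.8% of all genes tested, and it made up a smaller share of all metallothionein transcripts there. MT1X was the most abundant member in each library of both groups. Summed metallothionein FPKM spanned 8.52-fold among the HEB KO libraries and 1.59-fold among the wild type libraries. The HEB KO span rested on library 1, at 64.0 FPKM, against 545 and 418 FPKM in libraries 2 and 3. In bulk RNA, fewer cells of a type and less RNA per cell cannot be told apart.

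By limma with Benjamini-Hochberg adjustment over all 12937 genes, 0 of the 9 members tested passed at 0.05, against 0.240% of all genes tested. At an unadjusted p under 0.05 there was 1 member, MT1F, and 1300 of all genes tested reached that level. MT1A did not pass the filter on low values, which asked for 1 FPKM or more in 3 or more libraries. The 7 metallothioneins tested had a median log2 fold change of -0.44, with 2 above 0 and 5 below 0, against a median of -0.043 over all genes tested. Without HEB KO library 1 their median was -0.071, with 3 above 0 and 4 below 0, against -0.040 over all genes tested, and 0 members passed limma where 0.587% of all genes did. Of the 10 members, 1 had groups that did not overlap, MT1F, where 11.8% of all genes tested lay wholly below wild type in HEB KO and 7.72% wholly above. The members share a chromosomal cluster and sequence, so they are not independent of each other.

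**Figure D1:**
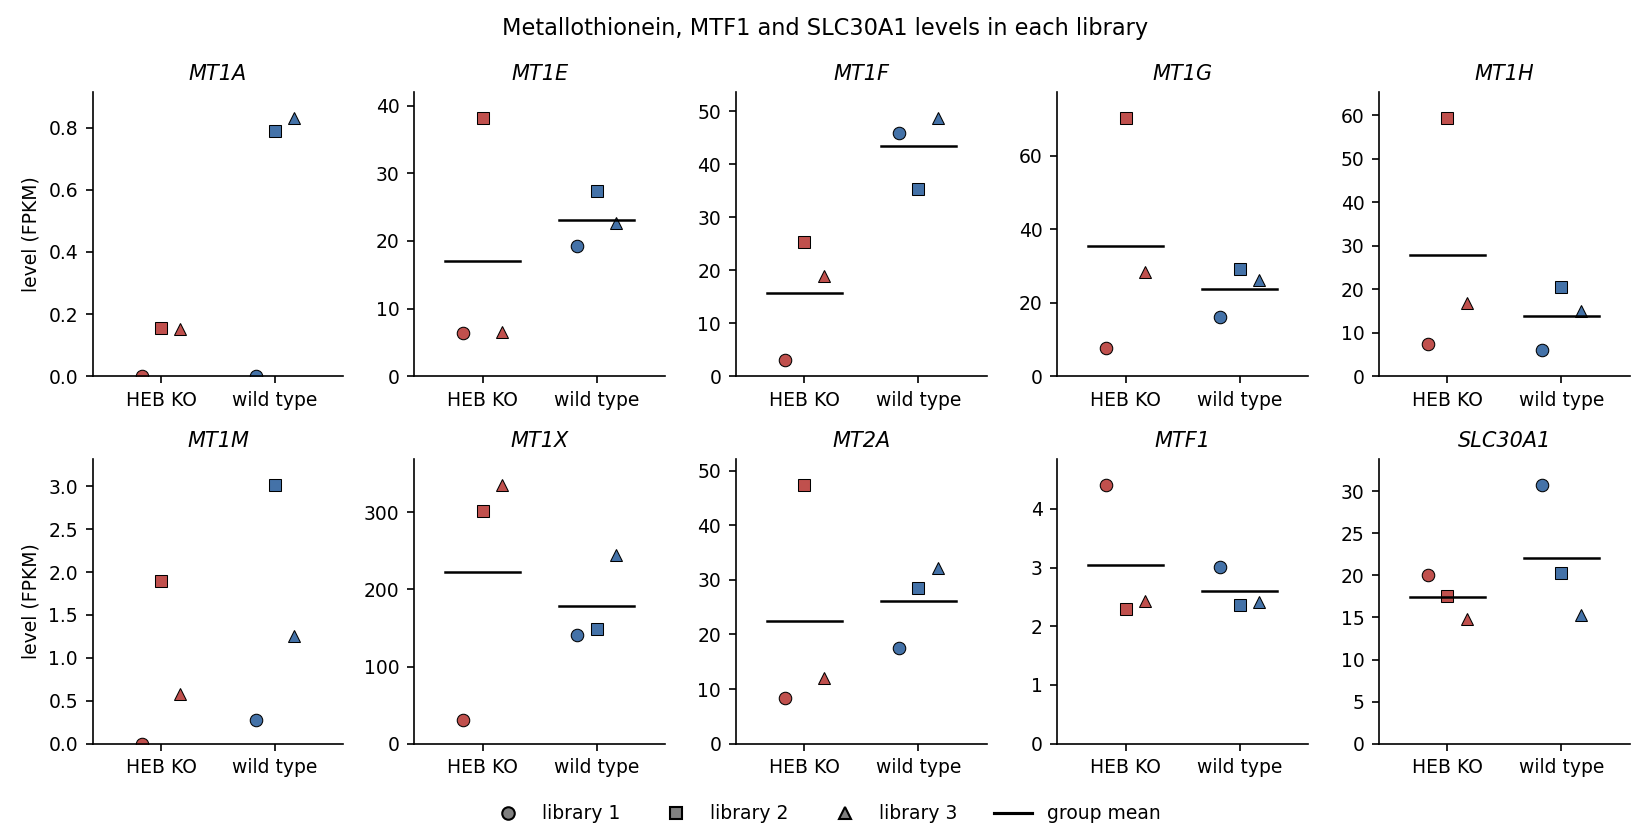
Level in FPKM (vertical axis, linear, from 0) of each of the 10 members in the 3 HEB KO and the 3 wild type libraries, with marker shape for the library number and a bar at the group mean (no bar for MT1A and MT1M, which have libraries at 0). MT1F is the panel in which the groups do not overlap, with HEB KO at 2.98 to 25.4 FPKM and wild type at 35.4 to 48.8 FPKM.

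MT1F stood at 2.98, 25.4 and 18.9 FPKM in HEB KO and at 46.0, 35.4 and 48.8 FPKM in wild type. The highest HEB KO value lay below the lowest wild type value. The means were 15.8 ± 11.6 FPKM in HEB KO and 43.4 ± 7.11 FPKM in wild type (SD, n = 3 each), 2.75-fold lower in HEB KO. On the log2(FPKM + 1) scale, which understates changes of low values, the log2 fold change was -1.78 (95% interval -3.26 to -0.30, SE 0.64, limma adjusted p = 0.409). Permuting the libraries exactly gave MT1F a two-sided p of 0.1, the smallest that 3 libraries against 3 allow. Without HEB KO library 1, the log2 fold change was -0.94 (limma adjusted p = 0.125), and without both libraries numbered 1 it was -0.89 (adjusted p = 0.0650). Those fits called 76 and 480 of all 12937 genes, against 31 with all libraries. With weights estimated per library, which called 14.5% of all genes, MT1F passed limma with an adjusted p of 0.0371 and a log2 fold change of -0.94.

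MT1X, which held the largest part of the metallothionein FPKM, read 31.1, 302 and 335 FPKM in HEB KO and 141, 149 and 245 FPKM in wild type. HEB KO libraries 2 and 3 lay above every wild type library and HEB KO library 1 below all of them. The means were 223 ± 167 FPKM in HEB KO and 178 ± 57.8 FPKM in wild type (SD, n = 3 each). The log2 fold change was -0.22 with a 95% interval of -2.17 to 1.72 (limma adjusted p = 0.948). It had the other sign, 0.88, without HEB KO library 1 (adjusted p = 0.201).

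MT2A, which in many human tissues is the most abundant metallothionein, read 8.28, 47.3 and 12.0 FPKM in HEB KO and 17.6, 28.5 and 32.1 FPKM in wild type. Its HEB KO values lay on both sides of the wild type range. The log2 fold change was -0.55 (95% interval -1.88 to 0.78, limma adjusted p = 0.774). Without HEB KO library 1 it was -0.071.

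MT1E showed the same arrangement, at 6.36, 38.2 and 6.54 FPKM in HEB KO and 19.3, 27.4 and 22.6 FPKM in wild type. Its HEB KO libraries 1 and 3 lay below the wild type range and library 2 above it. MT1G read 7.78, 70.4 and 28.4 FPKM in HEB KO and 16.0, 29.1 and 26.2 FPKM in wild type. MT1H, its neighbour in the cluster, read 7.43, 59.4 and 16.9 FPKM in HEB KO and 5.92, 20.6 and 14.9 FPKM in wild type. For both of these the value of HEB KO library 2 exceeded all other libraries, and the remaining values of the groups overlapped. The log2 fold changes were -0.88 for MT1E (95% interval -2.28 to 0.51), 0.14 for MT1G (-1.42 to 1.69) and 0.65 for MT1H (-0.99 to 2.28), with limma adjusted p of 0.652, 0.959 and 0.783 in the same order. Without HEB KO library 1 they were -0.48 for MT1E, 0.93 for MT1G and 1.30 for MT1H, and without HEB KO library 2 they were -1.68, -0.58 and -0.12 in the same order. On the log2(FPKM + 1) scale, the intervals over all libraries pass 2-fold in either direction for MT1G and in 1 direction for MT1E and MT1H. The lower end for MT1H, -0.99, lies so close to 2-fold that a 2-fold fall in FPKM is not excluded.

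MT1M and MT1A were the least abundant members. MT1M was listed at 0, 1.90 and 0.582 FPKM in HEB KO and at 0.275, 3.01 and 1.26 FPKM in wild type (log2 fold change -0.44, limma adjusted p = 0.790, and -0.078 without HEB KO library 1). MT1A was listed at 0, 0.156 and 0.153 FPKM in HEB KO and at 0, 0.789 and 0.832 FPKM in wild type. In each group the library numbered 1 gave the lowest value of both genes. Of the other metallothionein family genes and pseudogenes, 7 of 8 were in the table and none passed the filter. The pseudogene MT1L read 0.313, 0.442 and 0.293 FPKM in HEB KO and 1.61, 0.302 and 1.94 FPKM in wild type. MT1B, MT1DP and MT4 were listed at 0 in each of the 6 libraries, and MT3, known for its expression in brain, reached at most 0.215 FPKM in HEB KO and 0.360 FPKM in wild type.

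Between HEB KO libraries 1 and 2, MTF1 differed 1.92-fold and SLC30A1 1.14-fold, against 9.71-fold for MT1X. MTF1 read 4.40, 2.29 and 2.43 FPKM in HEB KO and 3.01, 2.37 and 2.41 FPKM in wild type, highest in the library numbered 1 of each group. Its log2 fold change was 0.14 (95% interval -0.44 to 0.71, limma adjusted p = 0.875), and -0.092 without HEB KO library 1. SLC30A1 read 20.1, 17.5 and 14.8 FPKM in HEB KO and 30.7, 20.3 and 15.3 FPKM in wild type. Its log2 fold change was -0.28 (95% interval -0.92 to 0.37, limma adjusted p = 0.763), and it was -0.38 without HEB KO library 1 and -0.022 without wild type library 1. On the log2(FPKM + 1) scale the interval for SLC30A1 does not reach a 2-fold change, and for MTF1 it does not either. HEB KO library 2, highest of its group in 7 of the 8 metallothioneins, lay between the other HEB KO libraries in SLC30A1.

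**Figure D2:**
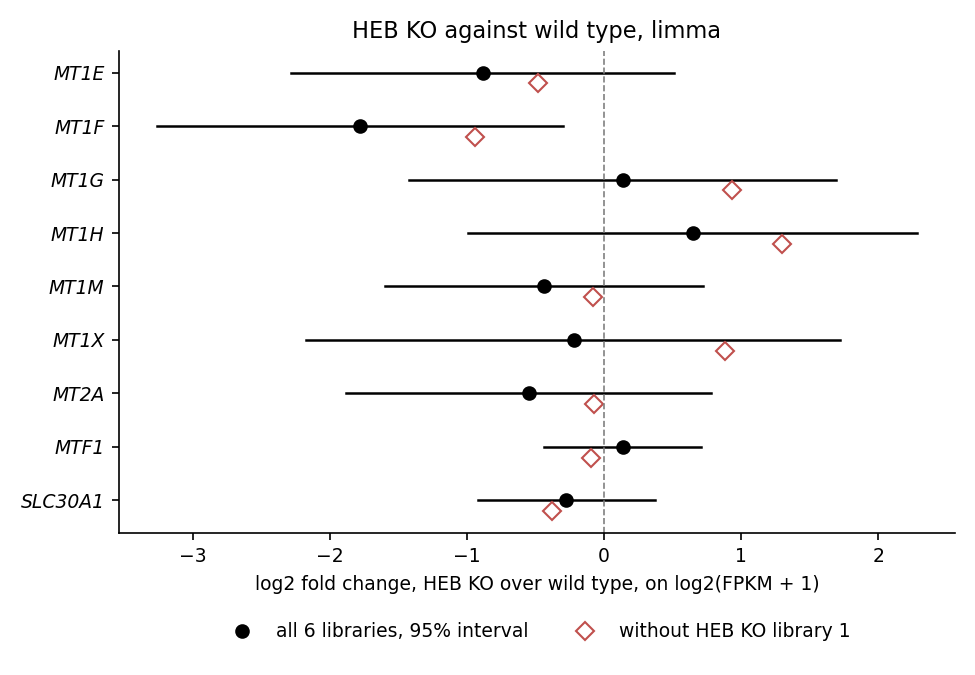
Log2 fold change of the 9 tested members, HEB KO over wild type, on log2(FPKM + 1) (horizontal axis), with the limma estimate and 95% interval over all 6 libraries and, as open diamonds, the estimate without HEB KO library 1. The interval of MT1F runs from -3.26 to -0.30, and the intervals of the other 8 members include 0.

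Libraries of 1 genotype differed from each other in the metallothioneins. Between HEB KO libraries 2 and 3, 4 of the 7 metallothioneins tested differed at least 2-fold on FPKM + 1, where 1.21% of all genes tested did so. MT1E was 5.84-fold higher in library 2 than in library 3, MT2A 3.95-fold, MT1H 3.51-fold and MT1G 2.48-fold. MT1F, at 1.34-fold higher in library 2, and MT1X, at 1.11-fold higher in library 3, were close to level between the same libraries. Between wild type libraries 2 and 3, 0 of the 7 differed at least 2-fold, where 1.11% of all genes tested did so. The wild type pair that differed in the most metallothioneins was libraries 1 and 2, with 2 of the 7, MT1H and MT1M, against 6.28% of all genes. Wild type libraries 1 and 3 differed in 1, MT1H, against 8.60% of all genes.

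HEB KO library 1 was at least 2-fold below library 2 in 7 of the 7 metallothioneins, against 20.0% of all genes differing in either direction, and at least 2-fold below library 3 in 4 of them, against 19.3%. MT1X was 9.71-fold lower in HEB KO library 1 than in library 2. Transcript length moved with the shift of HEB KO library 1, and to a smaller extent with that of wild type library 1. Genes whose longest annotated coding transcript has at most 1000 bases had a median log2 difference of -1.01 between HEB KO library 1 and the mean of libraries 2 and 3 (419 genes), and genes above 4000 bases one of 0.29 (4757 genes). Wild type library 1 differed from the mean of wild type libraries 2 and 3 by medians of -0.31 and 0.17 in the same length classes. Its tested metallothioneins had log2 differences from -1.42 (MT1H) and -1.24 (MT1M) to -0.35 (MT1E) and 0.14 (MT1F). In HEB KO library 1 the metallothioneins, all under 1000 bases, had log2 differences from -3.31 (MT1X) to -1.10 (MT1M), and the long transcripts of MTF1 and SLC30A1 had 0.68 and 0.30. The part of transcript length in these values was not tested.

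Summed over the 8 metallothioneins, the level was 64.0, 545 and 418 FPKM in HEB KO and 246, 294 and 391 FPKM in wild type. HEB KO libraries 2 and 3 lay above the wild type range and library 1 below it. The mean sums were 342 ± 249 FPKM in HEB KO and 310 ± 74.1 FPKM in wild type (SD, n = 3 each). The log2 ratio of these means, 0.14, was small beside the pooled SD of the log2 sums, 1.22. The ratio averages FPKM before taking logs, which gives the low sum of HEB KO library 1 less weight. Its sign therefore depends on how the libraries are averaged. Leaving out HEB KO library 1 gave a log2 ratio of 0.63, and leaving out HEB KO library 2 gave -0.36. MT1X alone made up 48.7%, 55.5% and 80.0% of the sum in HEB KO and 57.3%, 50.6% and 62.5% in wild type. Without MT1X the sums were 32.8, 243 and 83.5 FPKM in HEB KO and 105, 145 and 147 FPKM in wild type.

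**Figure D3:**
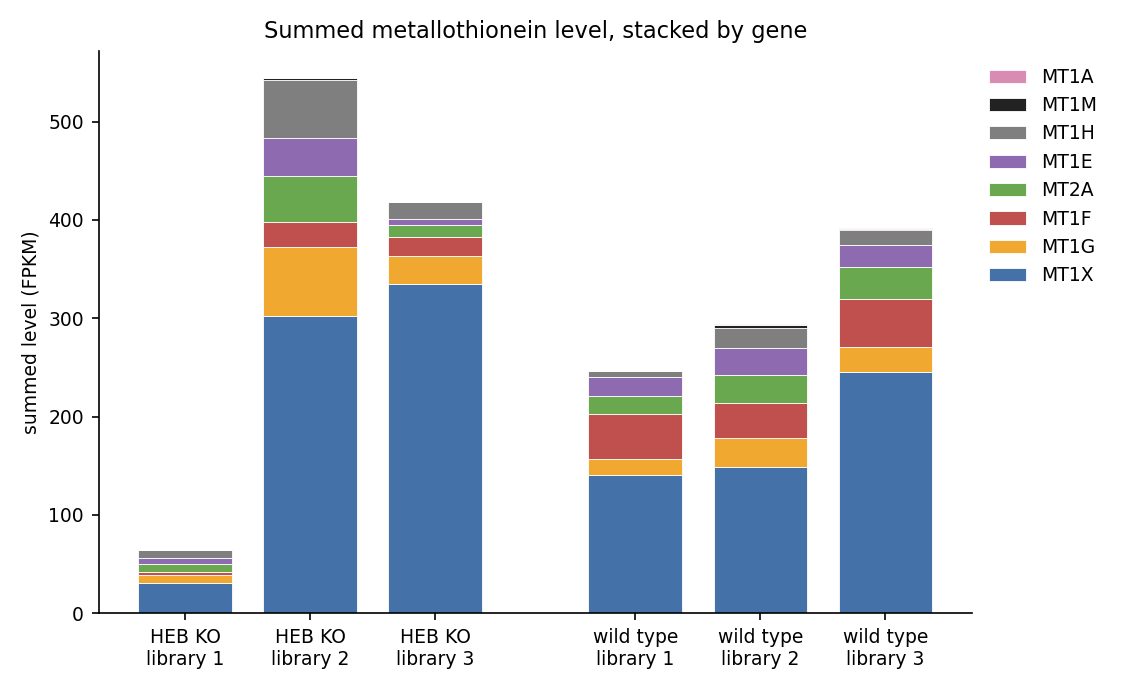
Summed FPKM of the 8 metallothioneins (vertical axis, from 0) in each library, stacked by gene. HEB KO library 1 has the lowest sum, 64.0 FPKM, and HEB KO library 2 the highest, 545 FPKM, and MT1X is the largest block in each bar.

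The make-up of the sum separated the groups in MT1F. MT1F held 4.66%, 4.67% and 4.52% of the summed metallothionein FPKM in the HEB KO libraries and 18.7%, 12.0% and 12.5% in the wild type libraries. The means were 4.62% ± 0.0802 in HEB KO and 14.4% ± 3.73 in wild type (SD, n = 3 each). The HEB KO shares were almost level although the sums behind them spanned 8.52-fold. A share is unaffected by any scaling of a whole library. This pattern was noticed in the values and is given as a description with no test.

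Because MT1X dominates the sum, MT1F was also set against other denominators. Relative to MT1X, MT1F stood at 9.57%, 8.42% and 5.65% in HEB KO and at 32.7%, 23.8% and 20.0% in wild type. Relative to the sum without MT1X it stood at 9.07%, 10.5% and 22.7% in HEB KO and at 43.8%, 24.4% and 33.3% in wild type. Relative to MT1G it stood at 38.3%, 36.2% and 66.6% in HEB KO and at 288%, 121% and 186% in wild type. The groups did not overlap in these 3 ratios, though HEB KO library 3 came close to wild type library 2 in the second. They did overlap relative to MT2A, at 36.0%, 53.8% and 158% in HEB KO and 261%, 124% and 152% in wild type, and relative to MT1E, at 46.8%, 66.6% and 289% in HEB KO and 238%, 129% and 216% in wild type. In both of these ratios HEB KO library 3 was the one that lay within or above the wild type range.

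The shares of the other abundant members overlapped between the groups. MT1G held 12.2%, 12.9% and 6.79% of the sum in HEB KO and 6.49%, 9.92% and 6.69% in wild type. MT1H held 11.6%, 10.9% and 4.05% in HEB KO and 2.41%, 7.03% and 3.82% in wild type. MT1E held 9.95%, 7.01% and 1.56% in HEB KO and 7.86%, 9.34% and 5.78% in wild type, and MT2A 12.9%, 8.68% and 2.86% in HEB KO and 7.16%, 9.72% and 8.19% in wild type. In HEB KO library 3 the shares of MT1E and MT2A were the lowest of the 6 libraries and that of MT1X the highest.

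**Figure D4:**
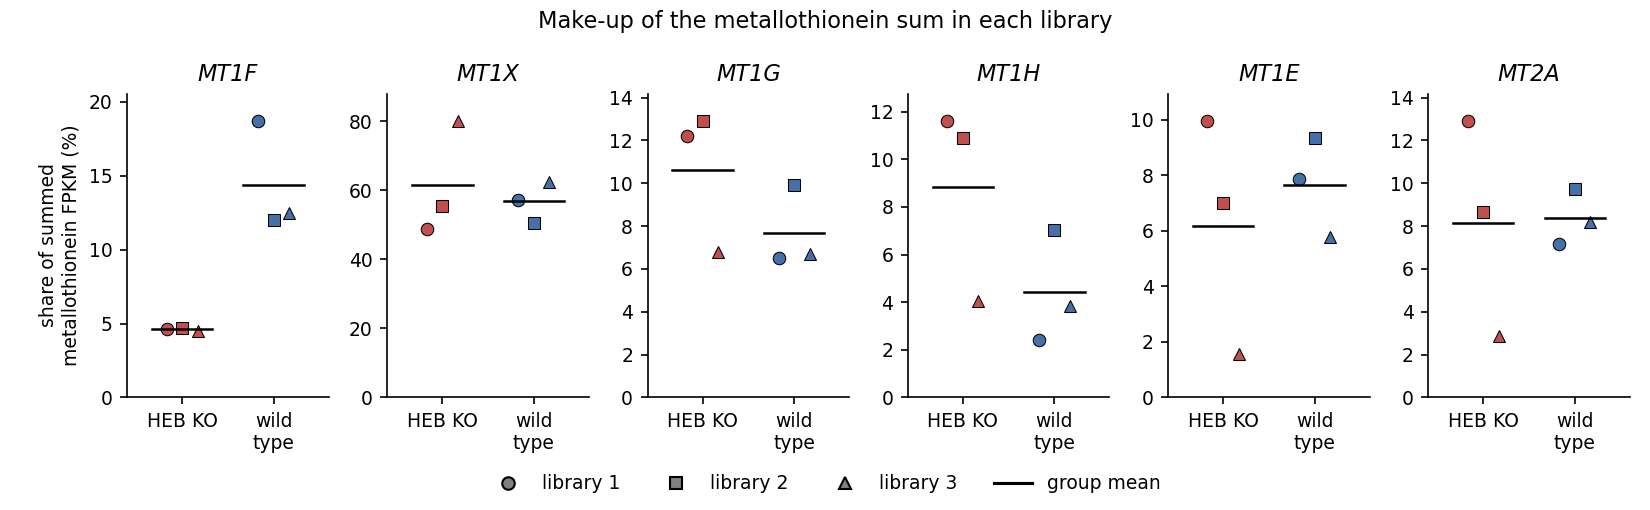
Share of the summed metallothionein FPKM in percent (vertical axes, from 0) held by the 6 most abundant metallothioneins in each HEB KO and wild type library, with bars at the group means. For MT1F the HEB KO libraries sit between 4.52% and 4.67% and the wild type libraries between 12.0% and 18.7%, and in the other panels the groups overlap.

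None of 73 tested genes in 9 lists drawn up around the members passed the limma test over all genes, against 0.240% of all genes tested, and 9 (12.3%) had an unadjusted p under 0.05, against 1300 of all 12937 genes tested. Without HEB KO library 1, 0 passed and 12 (16.4%) had an unadjusted p under 0.05, against 18.2% of all genes tested. Of 7 genes flanking the metallothionein cluster, 6 were tested, all with log2 fold changes below 0 and a median of -0.37. Without HEB KO library 1 they split into 3 above and 3 below 0, with a median of -0.20. NUDT21, a pre-mRNA cleavage factor gene, read 48.5, 97.9 and 102 FPKM in HEB KO and 94.3, 87.0 and 109 FPKM in wild type, and the nucleoporin gene NUP93 read 44.4, 80.2 and 82.6 FPKM in HEB KO and 63.8, 73.1 and 77.0 FPKM in wild type. BBS2 and HERPUD1, named after their values were seen, lay wholly below wild type. HERPUD1 averaged 8.80 ± 0.711 FPKM in HEB KO and 14.9 ± 4.27 FPKM in wild type (limma adjusted p = 0.409).

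Of 14 zinc importers of the SLC39A family 10 were tested, 8 of them with a log2 fold change below 0, the median was -0.38 (-0.33 without HEB KO library 1), and 0 passed the test in either direction. SLC39A14 read 81.0, 86.5 and 80.1 FPKM in HEB KO and 171, 108 and 72.4 FPKM in wild type, and SLC39A1 92.7, 84.7 and 90.2 FPKM in HEB KO and 149, 95.5 and 82.6 FPKM in wild type. SLC39A7, which releases zinc from the endoplasmic reticulum and was named after its values were seen, averaged 37.7 ± 5.18 FPKM in HEB KO and 64.1 ± 8.09 FPKM in wild type without overlap (limma adjusted p = 0.353). SLC39A3, also named after its values were seen, lay wholly above wild type, at 11.1 ± 0.529 FPKM in HEB KO and 7.66 ± 0.876 FPKM in wild type (limma adjusted p = 0.430). Of 10 further zinc exporters 4 were tested, with a median log2 fold change of -0.24 (-0.32 without HEB KO library 1). SLC30A5, which loads zinc into the secretory pathway, read 21.0, 21.0 and 20.2 FPKM in HEB KO and 39.4, 29.9 and 24.1 FPKM in wild type (limma adjusted p = 0.486). SLC30A9 averaged 42.1 ± 6.84 FPKM in HEB KO and 53.6 ± 6.48 FPKM in wild type.

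Of 13 copper handling genes 12 were tested, with a median log2 fold change of -0.10 (0.16 without HEB KO library 1). SOD1, the copper-zinc superoxide dismutase gene, averaged 159 ± 69.9 FPKM in HEB KO and 171 ± 28.0 FPKM in wild type, and the copper chaperone gene COX17 averaged 95.2 ± 32.7 FPKM in HEB KO and 102 ± 27.7 FPKM in wild type. CCS, which delivers copper to SOD1 and was named after its values were seen, lay wholly above wild type, at 11.5 ± 2.52 FPKM in HEB KO and 6.24 ± 2.57 FPKM in wild type (limma adjusted p = 0.430). Of 13 iron handling genes 11 were tested, with a median of -0.16 (-0.0078 without HEB KO library 1). The ferritin chain genes FTL and FTH1 averaged 1802 ± 752 and 392 ± 17.5 FPKM in HEB KO, against 1338 ± 511 and 343 ± 82.7 FPKM in wild type. FTL, SOD1 and COX17 had their lowest HEB KO value in library 1. HMOX1, the haem oxygenase gene that heavy metals induce, was named after its values were seen. It read 4.74, 16.2 and 10.4 FPKM in HEB KO and 4.30, 3.41 and 4.55 FPKM in wild type, without overlap between the groups (limma adjusted p = 0.416). Within HEB KO its highest value was in library 2, as for 7 of the 8 metallothioneins (not MT1X). FTL, FTH1, COX17 and CCS also had their highest HEB KO value there. The share of all genes with this order was not counted.

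All 14 oxidative stress and glutathione genes were tested and split evenly, 7 above and 7 below 0, with a median log2 fold change of -0.011 (0.026 without HEB KO library 1). PRDX1 read 387, 1169 and 1202 FPKM in HEB KO and 1082, 993 and 1214 FPKM in wild type, and TXN 104, 313 and 286 FPKM in HEB KO and 292, 279 and 371 FPKM in wild type. For both, HEB KO library 1 lay below the wild type range and HEB KO libraries 2 and 3 within it. Of 10 genes of the heat shock response, which heavy metals can induce, 9 were tested. Their median log2 fold change was 0.17 (0.24 without HEB KO library 1), with 8 above 0. HSPA8 and HSP90AA1 averaged 966 ± 438 and 321 ± 13.6 FPKM in HEB KO, against 909 ± 128 and 293 ± 42.0 FPKM in wild type. Of 9 glucocorticoid-responsive genes 7 were tested, with a median of -0.38 (-0.36 without HEB KO library 1). ERRFI1 averaged 22.0 ± 5.30 FPKM in HEB KO and 23.9 ± 4.21 FPKM in wild type, and FKBP5 14.2 ± 0.745 FPKM in HEB KO and 10.7 ± 2.12 FPKM in wild type. TSC22D3, a glucocorticoid target named after its values were seen, averaged 5.03 ± 0.353 FPKM in HEB KO and 10.6 ± 3.66 FPKM in wild type (limma adjusted p = 0.348). The median over all genes tested was -0.043.

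The genes whose pattern over the 6 libraries was most like the metallothionein sum were PSMA5 (Pearson r = 0.998), AHSA1 (0.997), CCT3 (0.996), ARPC5 (0.996) and PSMB4 (0.995), among 9076 genes with a mean of at least 5 FPKM. PSMA5, a proteasome subunit gene, read 14.0, 44.6 and 39.7 FPKM in HEB KO and 29.0, 30.6 and 37.9 FPKM in wild type. Like the metallothionein sum, it was lowest in HEB KO library 1 and highest in HEB KO library 2. Each correlation rests on the same 6 libraries, of which HEB KO library 1 lies far from the rest, so these values describe likeness only.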

How the data were processed

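RNA of 3 HEB KO and 3 wild type H1 libraries was measured. Per the labels' protocols, TRIZOL RNA was depleted of ribosomal RNA with Ribo-Zero Gold and made into stranded TruSeq total RNA libraries. Reads were aligned to hg19, and per the submitters' processing notes TopHat2 2.1.0 was used with Bowtie2 2.2.6. The deposited table holds 1 value per gene and library, with unequal column totals. The labels do not name the unit, and the values were taken here as FPKM that the authors computed. Which quantifier and annotation they used, and whether they used strand or scaled across libraries, is not given in the sources used here. Depth is unknown and no count model was possible, so the precision of low values cannot be stated.

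Of 23619 entries, 28 with a date for a symbol were left out. Values below 1e-10 were set to 0. limma 3.58.1 in R 4.3.3 tested log2(FPKM + 1) with an intensity trend over genes that reached 1 FPKM in 3 or more libraries, with Benjamini-Hochberg adjustment at 0.05. The fit was tried on simulated data with independent noise per gene and no outlying library, so that trial does not cover a library like HEB KO library 1. Alternatives changed the pseudocount, filter, scaling, trend, library weights, replicate block and libraries used.

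The members and lists were chosen with earlier results of these data known. All 10 members and TCF12 were named, other metallothionein genes where a group mean reached 1 FPKM, and from each list up to 3 genes past the threshold or, with none, the 2 of highest mean. The 5 most alike genes were ranked by Pearson r of log2(FPKM + 1) with the log2 sum. RefSeq GRCh38.p14 and GENCODE release 29 served for sequences and gene order, and no gene coordinates were mixed with hg19.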

Additional observations from a re-analysis of the deposited data

How the results depend on the processing

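With 16 other settings tried, 0 members passed the threshold in 15, and 1 passed with weights estimated per library (MT1F, log2 fold change -0.94). Leaving out single libraries gave 0 members each time. MT1F was lower in HEB KO in every setting. Of 142 values of single members in these settings, 131 kept their direction and their side of the threshold, and 10 took the other sign, none of them past the threshold. MT1X had the other sign with library weights (0.86) and without both libraries numbered 1 (0.73), and MTF1 with library weights (-0.0010) and without both libraries numbered 1 (-0.011). Over single libraries left out, the log2 fold change ran from -0.58 to 0.93 for MT1G, from -0.12 to 1.30 for MT1H, from -0.81 to 0.88 for MT1X and from -0.092 to 0.26 for MTF1. The signs turned without HEB KO library 2 (MT1G and MT1H), without wild type library 1 (MT1G, -0.12), without HEB KO library 1 (MT1X and MTF1) and without wild type library 3 (MT1X, 0.027). Leaving out libraries lowers the number of samples, and the cause of the other shifts was not tested. The log2 ratio of the summed metallothioneins ran from -0.36 to 0.63 over single libraries left out. The filter at 5 FPKM left MT1M and MTF1 untested.

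Taking the replicate number as a block, 0 members passed, and MT1F had an adjusted p of 0.281 in limma at a log2 fold change of -1.78. The block lowered the calls over all genes to 10, against 31 without it. For libraries of the same number, the deviations from the group means had correlations of 0.262, -0.0399 and 0.269. HEB KO libraries 1 and 3 correlated best with the wild type library of their own number, and HEB KO library 2 with wild type library 3 (0.408). Whether libraries of the same number belong together was not tested. Without counts, the precision of MT1A and MT1M cannot be judged.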
